A study of Mus musculus with 12 samples.

Results

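The 39 genes described here are established imprinted genes of the mouse, that is, genes of which mainly the copy inherited from the father or mainly the copy inherited from the mother is expressed in at least some tissues. They were found by symbol in the deposited expression table, where all 39 matched a row among 24255 genes. Whole ovaries of C57BL/6 mice were profiled by RNA sequencing in 2 groups. In CKO ovaries (n = 5 libraries) the kinase gene Mtor was deleted conditionally in oocytes by Cre driven from the promoter of Gdf9, an oocyte gene, and WT ovaries (n = 7 libraries) came from wild-type mice. All mice were 6 months old and had been given 5 IU of equine chorionic gonadotropin, which drives follicles to grow, 46 h before the ovaries were taken. Because the Cre acts in oocytes, the other ovarian cells keep Mtor. In RNA of a whole organ, fewer cells of a type and less RNA per cell cannot be told apart.

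Imprinted genes lie mostly in clusters, and a cluster is governed by a control region whose DNA methylation was set differently in egg and sperm. Protein-coding members of a cluster often share it with a long noncoding RNA expressed from the other parental copy, and several paternally expressed members are retrogenes that sit within a host gene. As a class these genes act in fetal and placental growth, in the exit from the cell cycle and in endocrine tissues, where some stay active in the adult. The values here are FPKM, fragment counts divided by transcript length and by library size, which sum both parental copies, so neither the expressed allele nor methylation was measured.

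Mtor itself was at 4.73, 4.63, 5.88, 4.95 and 4.89 FPKM in CKO replicates 1 to 5 and between 3.84 and 5.55 FPKM in WT, so the groups overlapped. Other ovarian cells keep the gene and the labels do not name the deleted exons, so this value does not check the genotype. In the 12 libraries between 14945 and 16083 genes had a value above 0. From the steps between low values, 1 fragment on a transcript of 1 kb corresponded to 0.305 to 0.656 FPKM, and the depth of the libraries spanned a 2.15-fold range. On a transcript of that length, a value below about 1 FPKM rests on few fragments, and on a longer one on more. For 1 WT column the name is the title of 1 WT sample and the description of another, and it is called the unnumbered WT library. Its sum of 5 luteal markers was 155 FPKM, against 1640 to 6100 FPKM in the other WT libraries, and its sum of 8 oocyte markers was the highest, at 209 FPKM. Of the imprinted genes tested, 14 of 27 had their highest WT value in this library, as did 21.1% of all genes tested. No label ties a library to an animal, and a p-value therefore reflects only how these libraries scatter, which may in part be technical.

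Levels of the imprinted genes in the ovary spread widely, with Gnas at the top and Rasgrf1 listed at 0. Of the 39 genes, 27 reached 1 FPKM in at least 5 of the 12 libraries and were tested, and 12 did not. The 6 with the highest mean FPKM over all libraries were Gnas (406 FPKM), Nap1l5 (170 FPKM), Ndn (57.9 FPKM), Mcts2 (57.5 FPKM), Blcap (53.7 FPKM) and Nnat (46.9 FPKM). Gnas and Blcap are assigned to the maternal copy and the other 4 to the paternal copy.

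**Figure D1:**
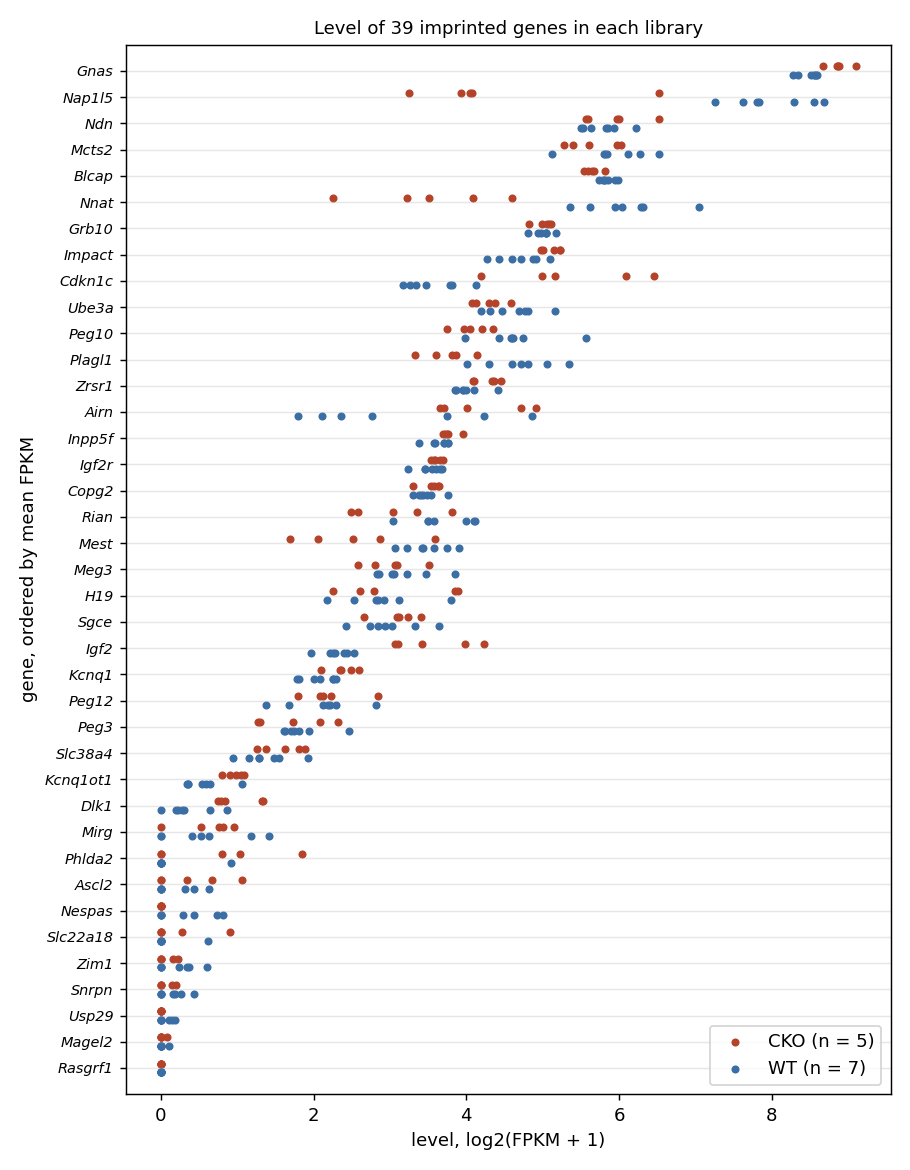
Level of each of the 39 imprinted genes in every library, as log2(FPKM + 1), with CKO libraries above WT libraries for each gene and genes ordered by mean FPKM. The points of Nap1l5 and Nnat (CKO far to the left) and of Cdkn1c and Igf2 (CKO to the right) form separate groups, and the 12 genes at the bottom lie below the limit for testing.

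Among the 27 imprinted genes with enough signal, CKO ovaries had 4 at a higher and 4 at a lower level. The threshold was an adjusted p of 0.05 in limma, fitted to log2(FPKM + 1) of 13168 genes and corrected over all of them. Over all genes tested, 8.70% were called higher and 7.59% lower, 16.3% together, and the 8 imprinted genes were 29.6% of those tested. Higher were Igf2, Cdkn1c, Gnas and Impact, and lower were Nap1l5, Nnat, Plagl1 and Mest. The values of CKO and WT did not overlap for 5 of the 27, with Igf2, Cdkn1c and Gnas higher in CKO and Nap1l5 and Nnat lower. Groups without overlap made up 4.09% of all genes tested with CKO higher and 3.65% with CKO lower, 7.73% together. The median log2 fold change was 0.09 over the 27 and -0.01 over all genes tested, and the median of its size was 0.28 over the 27 and 0.21 over all genes.

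**Figure D2:**
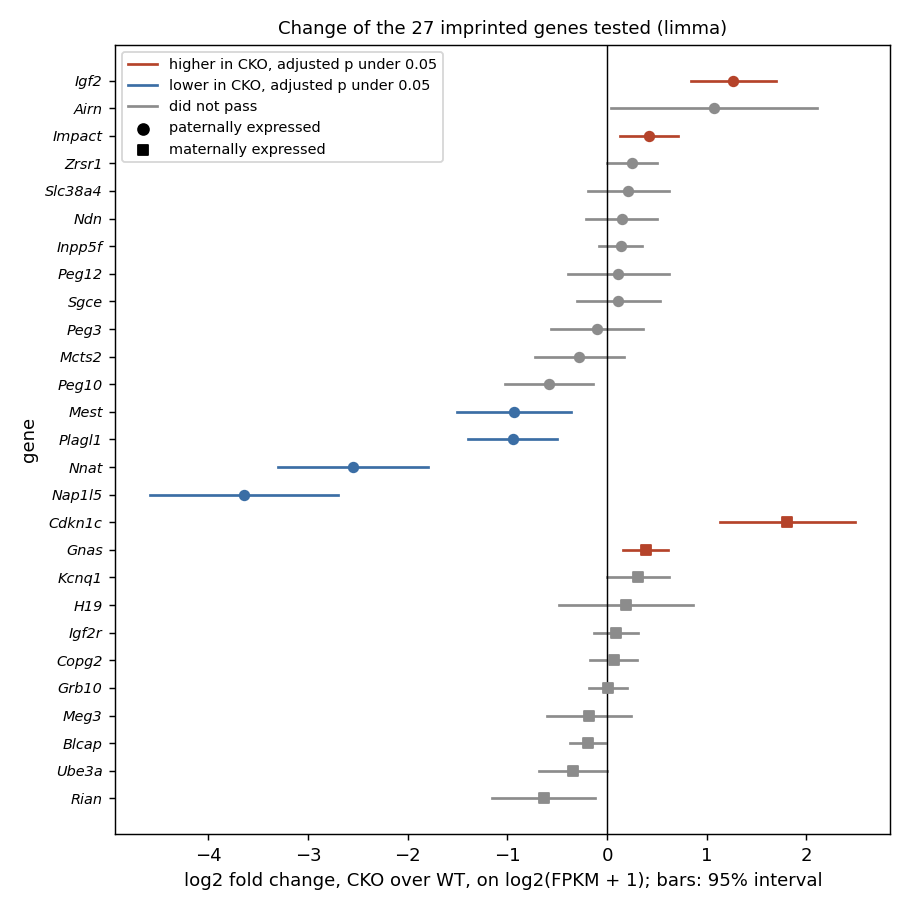
Log2 fold change (CKO over WT, on log2(FPKM + 1)) of the 27 imprinted genes tested, with 95% intervals from limma; circles mark paternally and squares maternally expressed genes, in red where higher in CKO, in blue where lower and in grey where the test was not passed. Nap1l5 lies lowest at -3.64 and Cdkn1c highest at 1.81, and most grey intervals span 0.

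Nap1l5, a member of the nucleosome assembly protein family, had the largest change of all imprinted genes tested. Its gene (chromosome 6, 58905233 to 58907076, minus strand, mm10) lies inside Herc3 on the opposite strand and is expressed from the paternal copy. It was at 91.1, 15.6, 15.9, 8.53 and 14.3 FPKM in CKO replicates 1 to 5, against a lowest value of 153 FPKM, a median of 227 FPKM and a highest value of 410 FPKM in WT. Every CKO library lay below every WT library, and CKO replicate 1 stood above the other CKO libraries. The mean in CKO was 0.107 of the WT mean (29.1 ± 34.8 FPKM in CKO, SD, n = 5; 271 ± 96.3 FPKM in WT, SD, n = 7), and the log2 fold change was -3.64 (SE 0.44, adjusted p = 0.000272, limma). Herc3, the host gene and a ubiquitin ligase family member, was at 4.21 ± 1.13 FPKM in CKO (SD, n = 5) and 4.75 ± 0.851 FPKM in WT (SD, n = 7) and did not pass (adjusted p = 0.563, limma). The log2 ratio of Nap1l5 over Herc3 differed between the genotypes by -3.48 (two-sided exact permutation p = 0.0013, the smallest the test can give, adjusted p = 0.0063 over the 10 pairs of neighbours tested).

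Nnat, which encodes neuronatin, a small membrane protein of the endoplasmic reticulum, had the next largest fall. The gene (chromosome 2, 157560078 to 157562522, plus strand) lies within Blcap on the opposite strand. CKO replicates 1 to 5 had 23.2, 8.34, 3.77, 16.1 and 10.4 FPKM, against 40.0 FPKM at the lowest, 64.6 FPKM at the median and 132 FPKM at the highest in WT. The groups did not overlap, and the highest WT value was that of the unnumbered library. Means were 12.4 ± 7.5 FPKM in CKO (SD, n = 5) and 71.6 ± 30.0 FPKM in WT (SD, n = 7), and the log2 fold change was -2.55 (SE 0.35, adjusted p = 0.000486, limma). Blcap, a small protein first described in bladder cancer and the maternally favoured partner of Nnat in brain, was at 49.5 ± 3.72 FPKM in CKO (SD, n = 5) and 56.7 ± 3.75 FPKM in WT (SD, n = 7) without passing the test (log2 fold change -0.19, adjusted p = 0.124, limma). Blcap was at 47.4, 55.4, 45.6, 50.1 and 48.9 FPKM in CKO replicates 1 to 5 and between 52.2 and 62.7 FPKM in WT, so CKO replicate 2 lay within the WT range and the other 4 below it. The log2 ratio of Nnat over Blcap differed by -2.36 (exact permutation p = 0.0013, adjusted p = 0.0063).

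The windows upstream of these genes are shown because both genes fell while the genes that contain them did not pass the test, and that of Mest, also lower, beside them. Each holds the 250 bases before a RefSeq start on GRCm38.p6 and is written in the direction of its gene. Capitals mark TGCCGC or its reverse complement GCGGCA, the hexamer that the zinc finger protein ZFP57 binds when methylated at imprinting control regions. The windows are chr6:58907127-58907376 (minus strand) for Nap1l5, chr2:157559828-157560077 (plus strand) for Nnat, chr2:157566362-157566611 (minus strand) for Blcap and chr6:30737800-30738049 (plus strand) for 1 of 3 starts of Mest.
Nap1l5: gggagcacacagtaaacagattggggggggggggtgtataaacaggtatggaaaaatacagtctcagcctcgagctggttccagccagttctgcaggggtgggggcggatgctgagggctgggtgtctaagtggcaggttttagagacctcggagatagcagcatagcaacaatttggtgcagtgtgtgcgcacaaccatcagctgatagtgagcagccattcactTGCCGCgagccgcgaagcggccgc
Nnat: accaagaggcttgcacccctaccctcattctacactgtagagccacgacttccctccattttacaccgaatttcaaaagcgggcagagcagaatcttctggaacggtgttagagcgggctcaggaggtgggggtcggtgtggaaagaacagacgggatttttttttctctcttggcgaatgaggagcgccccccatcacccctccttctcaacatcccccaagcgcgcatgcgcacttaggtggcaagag
Blcap: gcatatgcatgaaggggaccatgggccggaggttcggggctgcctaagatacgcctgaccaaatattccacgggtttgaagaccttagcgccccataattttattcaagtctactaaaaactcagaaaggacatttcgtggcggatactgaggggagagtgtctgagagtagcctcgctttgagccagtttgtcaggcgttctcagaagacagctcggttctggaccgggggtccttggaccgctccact
Mest: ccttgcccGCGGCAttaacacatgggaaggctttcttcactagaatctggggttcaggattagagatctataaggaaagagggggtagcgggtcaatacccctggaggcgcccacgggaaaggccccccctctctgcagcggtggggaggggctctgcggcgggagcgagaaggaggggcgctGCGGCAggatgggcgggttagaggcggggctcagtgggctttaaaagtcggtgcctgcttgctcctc

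The Nap1l5 window held 1 such hexamer and 10 CpG dinucleotides, that of Nnat 0 and 12, that of Blcap 0 and 12, and that of Mest 2 and 14. The other windows of Mest held 0 and 7 (chr6:30733256-30733505) and, overlapping the window shown, 2 and 14 (chr6:30737803-30738052). Of the Mest windows, the one shown was taken because it holds no annotated untranslated region. RefSeq windows were matched for 32 of the 39 genes, which have 47 starts. Of these 47 windows 8 held the hexamer on either strand, against 8.68% of 32851 windows of all genes, and the median number of CpG was 10 for the imprinted genes and 6 for all. AAGGTCA or its reverse complement TGACCTT, the site bound by the NR5A receptors of steroidogenic cells, was found in 2.13% of the imprinted windows and 4.08% of all windows, and in none of the 4 windows shown. Matches of each motif were counted separately.

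Plagl1, a zinc finger transcription factor expressed from the paternal copy (chromosome 10, 13060504 to 13131694, plus strand), was lower in CKO. It was at 13.5, 16.6, 11.1, 13 and 9.01 FPKM in CKO replicates 1 to 5, and in WT the lowest, median and highest values were 15.2, 25.3 and 39.7 FPKM. A single CKO library, replicate 2, exceeded the lowest WT library. The log2 fold change was -0.94 (SE 0.21, adjusted p = 0.00697, limma), with means of 12.7 ± 2.84 FPKM in CKO (SD, n = 5) and 25.9 ± 8.24 FPKM in WT (SD, n = 7).

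Mest, an alpha/beta hydrolase family member of the endoplasmic reticulum (chromosome 6, 30723547 to 30748465, plus strand), was also lower, with more spread. CKO replicates 1 to 5 had 4.71, 3.17, 2.22, 11.1 and 6.34 FPKM, and WT libraries had 7.37 FPKM at the lowest, 9.83 FPKM at the median and 14.0 FPKM at the highest. Replicate 4 lay among the WT libraries and the other 4 CKO libraries below all of them. The log2 fold change was -0.94 (SE 0.27, adjusted p = 0.0284, limma). The call was lost without CKO replicate 1, 2 or 3 or WT replicate 1, 3 or 4, with adjusted p between 0.0509 and 0.0747, and without CKO replicates 2 and 3 together the log2 fold change was -0.49 (adjusted p = 0.197). Copg2, a coat protein subunit whose 3′ exons overlap those of Mest on the opposite strand, had 8.89, 11.5, 10.6, 11.4 and 11 FPKM in CKO replicates 1 to 5 and between 8.88 and 12.6 FPKM in WT, so the groups overlapped (log2 fold change 0.07, adjusted p = 0.734, limma). Of the exon bases of Mest 23.1% are shared with Copg2, and the sources used here do not say whether counting used strand. The log2 ratio of Mest over Copg2 differed by -1.0 (exact permutation p = 0.0051, adjusted p = 0.0126).

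Markers of granulosa cells and most markers of oocytes moved with these 4 falls. All 9 granulosa markers were lower in CKO, with summed levels of 1320 to 2430 FPKM in CKO and 3450 to 6230 FPKM in WT, and none was at 0 in all libraries. Inha alone averaged 1310 FPKM in CKO and 3220 FPKM in WT, so the ranking of libraries by this sum rests largely on Inha. CKO replicate 1 had the highest granulosa sum of the CKO libraries and the highest CKO values of Nap1l5 and Nnat. Plagl1 was highest in CKO replicate 2 (16.6 FPKM) and Mest in CKO replicate 4 (11.1 FPKM), whose granulosa sums, 1320 and 1390 FPKM, were the lowest. All 6 oocyte markers tested, of 8, were lower too, and the sums of the 8 were 5.51 to 52.1 FPKM in CKO and 63.1 to 209 FPKM in WT. The markers below the limit for testing were Zp1 and Zp2. Zp1 averaged 1.02 FPKM in CKO and 1.07 FPKM in WT, and Zp2 0.839 FPKM in CKO and 0.56 FPKM in WT. The part of either cell type in the falls was not tested.

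**Figure D3:**
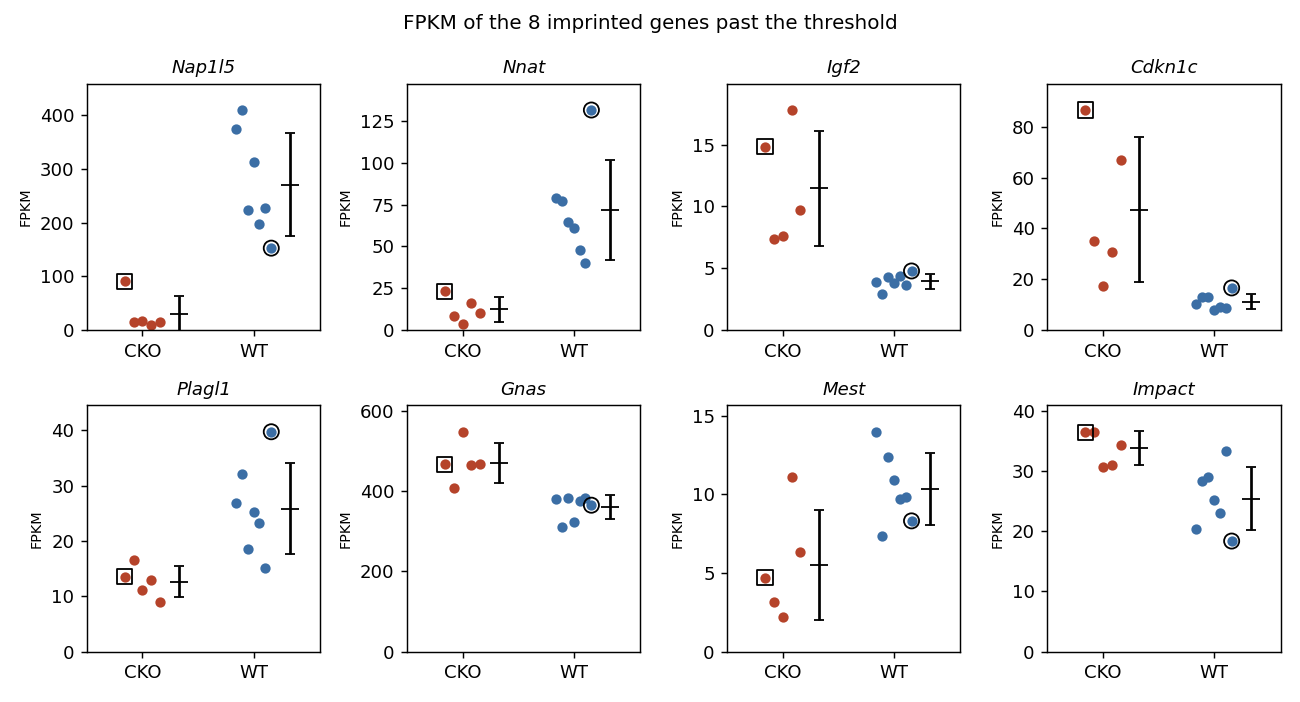
FPKM of the 8 imprinted genes past the threshold in each library, with the mean and SD of each group beside its points; the square marks CKO replicate 1 and the circle the unnumbered WT library, and the axis cuts the lower bar of Nap1l5 in CKO at 0. For Nap1l5 all CKO libraries lie at or below 91.1 FPKM and all WT libraries at or above 153 FPKM, and for Cdkn1c CKO spreads from 17.3 to 86.7 FPKM above a WT group of 7.99 to 16.5 FPKM.

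Cdkn1c, the cyclin-dependent kinase inhibitor p57, which holds cells out of the cycle and is expressed from the maternal copy, had the largest rise. The gene (chromosome 7, 143458339 to 143461050, minus strand) was at 86.7, 34.9, 17.3, 30.7 and 67.1 FPKM in CKO replicates 1 to 5, against 7.99 FPKM at the lowest, 10.1 FPKM at the median and 16.5 FPKM at the highest in WT. The groups did not overlap, and the lowest CKO library lay close to the highest WT library, which was the unnumbered one. Means were 47.3 ± 28.6 FPKM in CKO (SD, n = 5) and 11.2 ± 3.09 FPKM in WT (SD, n = 7), and the log2 fold change was 1.81 (SE 0.32, adjusted p = 0.00188, limma). When CKO replicates 1 and 5, which had the most macrophage marker RNA, were left out, it was 1.21 (adjusted p = 0.00876, limma). Of its exon bases 30.7% overlap Gm44732 on the opposite strand, whose reads cannot be told apart without strand information. Its cluster is controlled by Kcnq1ot1. Kcnq1, a potassium channel, was at 3.27, 4.07, 4.6, 5.05 and 4.15 FPKM in CKO replicates 1 to 5 and between 2.44 and 3.89 FPKM in WT and did not pass (log2 fold change 0.31, adjusted p = 0.169, limma). The noncoding RNA Kcnq1ot1 lay between 0.748 and 1.13 FPKM in CKO and between 0.266 and 1.08 FPKM in WT, below the limit for testing, although its annotated transcript of 93092 bases collects many fragments at such values. Phlda2, a growth-restraining protein of the placenta, Slc22a18, a transporter, and Ascl2, a transcription factor of trophoblast, were each at 0 in some libraries of both genotypes and reached at most 2.61 FPKM.

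Igf2, the insulin-like growth factor II expressed from the paternal copy, was higher in every CKO library than in any WT library. Its gene (chromosome 7, 142650766 to 142666816, minus strand) was at 14.8, 7.35, 7.60, 17.8 and 9.72 FPKM in CKO replicates 1 to 5, and in WT the lowest, median and highest values were 2.90, 3.84 and 4.77 FPKM. There was no overlap, and CKO replicates 1 and 4 were the highest. The log2 fold change was 1.27 (SE 0.20, adjusted p = 0.000998, limma), with means of 11.5 ± 4.65 FPKM in CKO (SD, n = 5) and 3.94 ± 0.604 FPKM in WT (SD, n = 7). H19, the noncoding RNA that shares the control region of Igf2 and is expressed from the maternal copy, was at 13.4, 3.77, 5.09, 13.8 and 5.90 FPKM in the same CKO libraries and between 3.52 and 13 FPKM in WT. It was highest in the CKO libraries with the most Igf2 and did not pass (log2 fold change 0.19, SE 0.31, adjusted p = 0.739, limma). The log2 ratio of Igf2 over H19 was 0.48 ± 0.26 in CKO (SD, n = 5) and -0.59 ± 0.49 in WT (SD, n = 7), a difference of 1.08 (exact permutation p = 0.0051, adjusted p = 0.0126). Of the exon bases of Igf2 64.5% overlap annotated neighbours, the antisense transcript Igf2os among them, so reads of these genes may not be separable.

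Igf2r, the receptor that clears IGF2 and is expressed from the maternal copy, was at 11.2 ± 0.522 FPKM in CKO (SD, n = 5) and 10.5 ± 1.17 FPKM in WT (SD, n = 7). Its log2 fold change was 0.09 with a 95% interval of -0.13 to 0.31 (adjusted p = 0.605, limma). Airn, the antisense RNA that starts in Igf2r and silences it in cis on the paternal copy, was listed at 11.6, 29.1, 25.2, 15.2 and 12 FPKM in CKO replicates 1 to 5. In WT it spread from 2.48 to 28 FPKM with a median of 5.81 FPKM, and the unnumbered library gave the highest WT value. Airn did not pass (log2 fold change 1.07, SE 0.48, adjusted p = 0.149, limma), except without the unnumbered WT library (log2 fold change 1.36, adjusted p = 0.0362), also with CKO replicate 1 left out (1.5, adjusted p = 0.0392). Airn runs across Igf2r on the opposite strand, and without strand information intronic reads of either cannot be told apart.

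Gnas, which encodes the stimulatory G protein alpha subunit that couples gonadotropin receptors to cAMP, was the most abundant of the 39 genes. It was moderately higher in CKO. At its locus (chromosome 2, 174284320 to 174346744, plus strand) CKO replicates 1 to 5 had 467, 407, 548, 464 and 469 FPKM, against 310 FPKM at the lowest, 375 FPKM at the median and 383 FPKM at the highest in WT. The groups did not overlap. Means were 471 ± 50.1 FPKM in CKO (SD, n = 5) and 360 ± 30.4 FPKM in WT (SD, n = 7), and the log2 fold change was 0.39 (SE 0.10, adjusted p = 0.0213, limma). The call was lost in 4 alternatives, among them those without CKO replicate 3 (adjusted p = 0.0628), without CKO replicates 1 and 5 together (adjusted p = 0.0741) and with values scaled to the total FPKM of a library (log2 fold change 0.28, adjusted p = 0.0528). Of the Gnas exon bases 22% overlap antisense genes. The locus has 24 annotated transcripts, which its single value does not tell apart. Nespas, an antisense RNA of the locus, was listed at 0 in all CKO libraries and between 0 and 0.754 FPKM in WT.

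Impact, an inhibitor of the amino acid sensing kinase GCN2 encoded on chromosome 18 and expressed from the paternal copy, passed narrowly. It was at 36.4, 36.5, 30.6, 31.1 and 34.4 FPKM in CKO replicates 1 to 5, and in WT at 18.4 FPKM at the lowest, 25.3 FPKM at the median and 33.3 FPKM at the highest. WT replicate 7, at 33.3 FPKM, lay within the CKO range. The log2 fold change was 0.42 (SE 0.13, adjusted p = 0.0467, limma). Dropping a library ended the call in 9 of 12 cases, namely any 1 of CKO replicates 1 to 5, WT replicates 1, 4 and 6, and the unnumbered WT library, with adjusted p between 0.0602 and 0.0997.

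Several markers of stroma and macrophages were higher in CKO beside the 4 genes called higher. Of 6 stromal markers 3 were higher in CKO and 0 lower, with sums of 1380 to 1830 FPKM in CKO and 502 to 727 FPKM in WT. Dcn alone averaged 892 FPKM in CKO and 191 FPKM in WT. The stromal sum was highest in CKO replicate 2, which had the lowest Igf2 and Gnas and the highest Impact of the CKO libraries. Of 5 macrophage markers 4 were higher and 0 lower, with sums of 111 to 368 FPKM in CKO and 25.2 to 73.4 FPKM in WT, and the highest were in CKO replicates 1 (368 FPKM) and 5 (328 FPKM), which also had the highest Cdkn1c. Igf2 was highest in CKO replicate 4 (macrophage sum 158 FPKM), Gnas in CKO replicate 3 (113 FPKM) and Impact in CKO replicate 2 (111 FPKM). The sum of 5 blood markers was also highest in CKO replicates 1 and 5, at 276 and 316 FPKM, against 13 to 63.6 FPKM in the other CKO libraries and 19.4 to 248 FPKM in WT. No stromal or macrophage marker was at 0 in all libraries. Single markers of other cell types were called higher too. These were Cyp11b1 of adrenal cortex (adjusted p = 0.0208, limma), Krt19 of surface epithelium (adjusted p = 0.039, limma) and Tek of endothelium (adjusted p = 0.0217, limma). No other marker of those lists passed. The surface epithelium sum was highest in CKO replicate 1, at 254 FPKM, and the adrenal sum in CKO replicate 3, at 19.9 FPKM. The part of any of these cells in the rises was not tested. The oviduct markers Ovgp1 and Foxj1 summed to 257 and 83.4 FPKM in CKO replicates 2 and 3, against at most 1.99 FPKM in the other CKO libraries and at most 1.66 FPKM in WT. Without CKO replicates 2 and 3 the log2 fold changes of Nap1l5, Nnat, Igf2 and Cdkn1c were -3.44, -2.02, 1.58 and 2.28, and each kept its call, as did Plagl1 (-1.02) and Gnas (0.38). Mest (-0.49, adjusted p = 0.197, limma) and Impact (0.43, adjusted p = 0.117, limma) lost theirs in that fit.

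In the Dlk1-Dio3 cluster on chromosome 12, the maternally expressed noncoding RNAs Meg3 and Rian were tested and did not pass, and the paternally expressed Dlk1 was below the limit for testing. Rian, a noncoding RNA that carries small nucleolar RNAs and microRNAs in its introns, was at 9.23, 13, 7.23, 4.61 and 5.00 FPKM in CKO replicates 1 to 5 and between 7.21 and 16.3 FPKM in WT. It did not pass (log2 fold change -0.63, SE 0.24, adjusted p = 0.0918, limma), except without CKO replicate 2 (adjusted p = 0.0267) or WT replicate 7 (adjusted p = 0.0459), or without CKO replicates 2 and 3 (adjusted p = 0.0413). Meg3, a noncoding RNA with a tumour suppressor role in pituitary cells, was at 7.25 ± 2.06 FPKM in CKO (SD, n = 5) and 8.38 ± 2.60 FPKM in WT (SD, n = 7), and the ratio of Meg3 over Rian did not pass (difference of log2 ratios 0.46, exact permutation p = 0.0556, adjusted p = 0.0926). Dlk1, a transmembrane protein of the Notch ligand type, lay between 0.682 and 1.53 FPKM in CKO and between 0 and 0.828 FPKM in WT, too low for the test. Mirg, a microRNA host, lay between 0 and 0.935 FPKM in CKO and between 0 and 1.66 FPKM in WT.

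Peg10 and Sgce start next to each other on chromosome 6 and read in opposite directions. Peg10, a retrotransposon-derived gene needed in the placenta, was at 15.6, 14.7, 19.3, 17.4 and 12.4 FPKM in CKO replicates 1 to 5, and in WT the lowest, median and highest values were 14.7, 23.2 and 46.6 FPKM. It did not pass (log2 fold change -0.58, SE 0.21, adjusted p = 0.0715, limma), except without WT replicate 7 (adjusted p = 0.0244), the WT library within the CKO range. Sgce, a sarcoglycan of the cell membrane, was at 7.72 ± 1.56 FPKM in CKO (SD, n = 5) and 7.23 ± 2.36 FPKM in WT (SD, n = 7). The log2 ratio of Peg10 over Sgce differed by -0.69 (exact permutation p = 0.0177, adjusted p = 0.0354). This call was lost in 10 of the 12 tests that leave out 1 library, all but those without WT replicate 4 or 7, with adjusted p between 0.0505 and 0.0727.

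In the Snrpn-Ube3a cluster on chromosome 7, no member passed. Ndn, which encodes necdin, a growth suppressor of the MAGE family, was at 90.8, 47.5, 62.8, 62.1 and 46.6 FPKM in CKO replicates 1 to 5 and between 44.2 and 73.7 FPKM in WT (log2 fold change 0.15, adjusted p = 0.602, limma). Ube3a, a ubiquitin ligase imprinted in neurons, was at 18.8 ± 2.88 FPKM in CKO (SD, n = 5) and 24.4 ± 5.89 FPKM in WT (SD, n = 7), with a log2 fold change of -0.34 (adjusted p = 0.162, limma). Peg12, a relative of the GSK3-binding proteins, was at 3.79 ± 1.42 FPKM in CKO (SD, n = 5) and 3.48 ± 1.42 FPKM in WT (SD, n = 7). Snrpn was listed at no more than 0.352 FPKM in any library and Magel2 at no more than 0.0796 FPKM. Snrpn shares exons with Snurf, which was listed at no more than 0.321 FPKM. A value near 0 in this table can be a failed estimate, since 10 ribosomal protein genes of 73 are listed at 0 in all 12 libraries.

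The 2 other retrogenes that lie within a host gene, Zrsr1 in Commd1 and Mcts2 in H13, did not pass. Zrsr1, a splicing factor, was at 18.4 ± 2.2 FPKM in CKO (SD, n = 5) and 15.3 ± 2.37 FPKM in WT (SD, n = 7), with a log2 fold change of 0.25 (adjusted p = 0.164, limma). Mcts2, a translation factor gene, was at 47.8, 41.3, 61.6, 37.7 and 64 FPKM in CKO replicates 1 to 5 and between 34 and 91.3 FPKM in WT, with a log2 fold change of -0.28 (adjusted p = 0.407, limma). Both have related copies on the X chromosome. How alike the sequences are, and whether the values include reads of those copies, was not tested. Commd1, a copper-handling protein, was at 76.6 ± 21.4 FPKM in CKO (SD, n = 5) and 77.4 ± 7.18 FPKM in WT (SD, n = 7), and H13, a signal peptide peptidase, at 39 ± 4.69 FPKM in CKO and 46.5 ± 4.28 FPKM in WT. Neither ratio to the host passed, with differences of 0.31 for Zrsr1 over Commd1 (adjusted p = 0.2637, exact permutation test) and -0.03 for Mcts2 over H13 (adjusted p = 0.9242, exact permutation test).

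**Figure D4:**
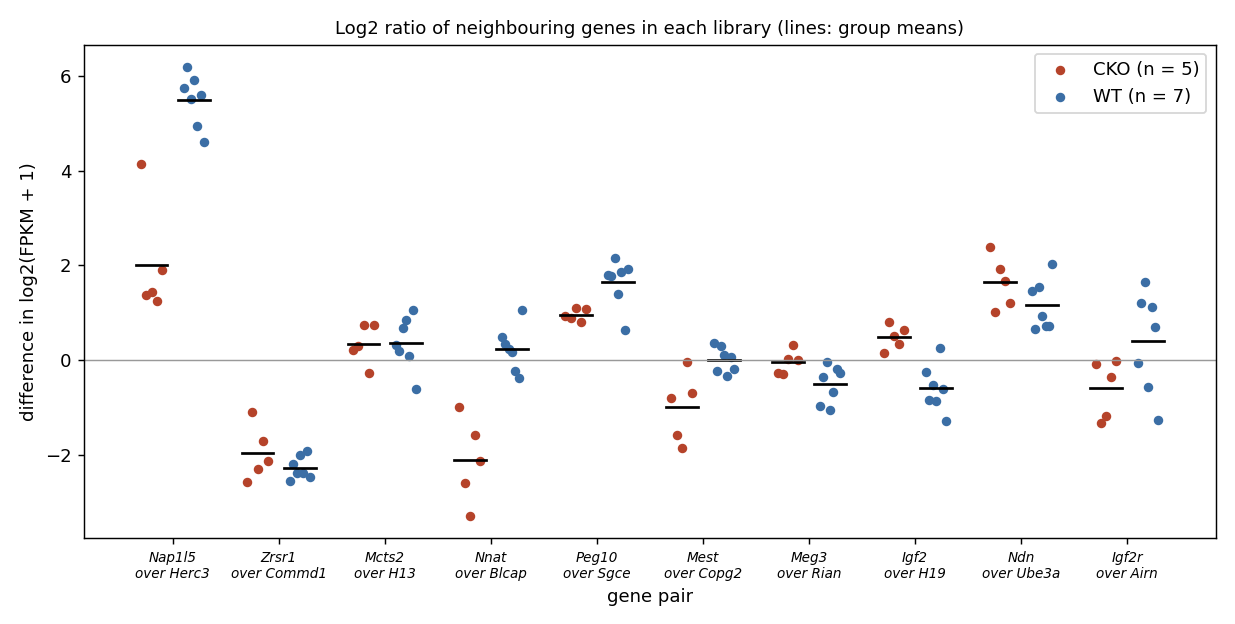
Difference in log2(FPKM + 1) between the first and the second gene of 10 neighbouring pairs in each library, CKO left of WT, with lines at the group means. Nap1l5 over Herc3 and Nnat over Blcap separate the genotypes without overlap (means 2.02 in CKO and 5.50 in WT, and -2.12 in CKO and 0.24 in WT), while Mcts2 over H13 lies at 0.34 in CKO and 0.37 in WT.

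In all, 5 of the 10 pairs passed, namely Nap1l5 over Herc3, Nnat over Blcap, Mest over Copg2, Igf2 over H19 and Peg10 over Sgce. All of these but Peg10 over Sgce hold a gene called by limma in the same libraries, so they are not separate evidence. The share among other neighbouring genes was not measured. The 2 pairs not yet described did not pass. Ndn over Ube3a differed by 0.49 (adjusted p = 0.1926, exact permutation test) and Igf2r over Airn by -0.98 (adjusted p = 0.1443, exact permutation test). A further 6 of the 16 pairs listed held a gene below the limit for testing.

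The remaining genes tested did not pass. Grb10, an adaptor that restrains insulin receptor signalling, had a log2 fold change of 0.01 with a 95% interval of -0.18 to 0.20, at 31.4 ± 2.51 FPKM in CKO (SD, n = 5) and 31.2 ± 2.52 FPKM in WT (SD, n = 7). Inpp5f, a phosphoinositide phosphatase, was at 12.7 ± 1.06 FPKM in CKO (SD, n = 5) and 11.5 ± 1.13 FPKM in WT (SD, n = 7). Slc38a4, an amino acid transporter of liver and placenta, and Peg3, a zinc finger protein, averaged 2.05 and 2.49 FPKM in CKO and 1.65 and 2.66 FPKM in WT. The neighbours of Peg3 were below the limit, with Usp29 at no more than 0.140 FPKM and Zim1 at no more than 0.515 FPKM in any library. Rasgrf1, an exchange factor of neurons, was listed at 0 in all 12 libraries. It was the only 1 of the 39 listed so.

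By parental copy, the paternally expressed genes numbered 23, of which 16 were tested, 2 were called higher and 4 lower. Maternally expressed genes numbered 16, of which 11 were tested, 2 were called higher and 0 lower in limma. At an unadjusted p under 0.05 the maternal genes Rian, Blcap and Ube3a had lower values, and in the authors' deposited table Rian passed. Over both copies 14 of the 27 genes had such a p, as did 3974 of all 13168 genes tested. Median log2 fold changes were 0.11 for the paternal and 0.07 for the maternal genes. Whether these shares differ was not tested, and the parental assignment comes from other tissues. Of the 7 noncoding RNAs, 4 were tested and 0 passed in limma, with Rian and Airn at an unadjusted p under 0.05, while the 3 with the smallest p among protein-coding genes were Nap1l5, Nnat and Igf2.

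In the authors' deposited table, 5 of the 39 genes were listed lower in CKO at q under 0.05, namely Nap1l5, Nnat, Plagl1, Peg10 and Rian, and 3 higher, namely Igf2, Cdkn1c and Impact. That threshold was passed by 8.14% of the genes tested here with CKO higher and by 6.70% with CKO lower. Calls here and in the authors' deposited table were shared for 6 genes. In the authors' deposited table q was 0.103 for Gnas and 0.155 for Mest, and 0.000600 for Peg10 and 0.00596 for Rian.

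A list of 36 further genes reported as imprinted in some mouse tissue had 23 tested, of which 3 were higher and 1 lower in CKO, against 16.3% called over all genes. Dcn, the proteoglycan decorin, imprinted in placenta and also 1 of the 6 stromal markers, was at 892 ± 129 FPKM in CKO (SD, n = 5) and 191 ± 45.0 FPKM in WT (SD, n = 7). Dio3, the deiodinase that inactivates thyroid hormone and the far end of the Dlk1-Dio3 cluster, was at 19.8 ± 7.02 FPKM in CKO (SD, n = 5) and 6.84 ± 3.05 FPKM in WT (SD, n = 7), with a log2 fold change of 1.47 (SE 0.30, adjusted p = 0.00441, limma). Gatm, an enzyme of creatine synthesis, was at 47.7 ± 14.1 FPKM in CKO (SD, n = 5) and 28.6 ± 8.11 FPKM in WT (SD, n = 7). Asb4, a ubiquitin ligase subunit of the Peg10 cluster, was at 2.5 ± 0.361 FPKM in CKO (SD, n = 5) and 6.15 ± 2.82 FPKM in WT (SD, n = 7), with a log2 fold change of -0.94 (SE 0.24, adjusted p = 0.0145, limma). Cd81, a tetraspanin and with Dcn the most abundant of the list, did not pass, at 319 ± 30.4 FPKM in CKO (SD, n = 5) and 293 ± 20.4 FPKM in WT (SD, n = 7).

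Of 20 genes that set or keep imprints, 19 were tested, 4 were lower in CKO and 0 higher in limma, where Dnmt3l and Kdm1b had higher values at an unadjusted p of 0.0117 and 0.0336. Over all genes tested 7.59% were called lower and 8.70% higher. Zfp57, which binds methylated imprinting control regions, was at 16.4 ± 4.96 FPKM in CKO (SD, n = 5) and 32.2 ± 6.68 FPKM in WT (SD, n = 7), with a log2 fold change of -0.96 (SE 0.195, adjusted p = 0.00449, limma). Its corepressor Trim28 was at 29.7 ± 6.70 FPKM in CKO (SD, n = 5) and 41.7 ± 7.41 FPKM in WT (SD, n = 7). The maintenance methyltransferase Dnmt1 and its cofactor Uhrf1 were at 2.66 ± 0.744 and 4.41 ± 1.64 FPKM in CKO (SD, n = 5) and at 4.77 ± 0.979 and 10.5 ± 2.03 FPKM in WT (SD, n = 7). Adjusted p for these 3 lay between 0.00148 and 0.0370 (limma). Zfp445, a zinc finger protein that keeps imprints together with ZFP57, and with Trim28 the most abundant of the list, was at 34.7 ± 7.47 FPKM in CKO (SD, n = 5) and 35.7 ± 3.95 FPKM in WT (SD, n = 7) and did not pass. Oocyte and granulosa markers moved with the falls of this list as given above, and their part was not tested.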

How the data were processed

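Polyadenylated RNA of whole ovaries was sequenced as paired-end libraries, per the labels. Per the series' design text, trimmed reads were mapped with TopHat2 2.0.13 (mm10). The authors deposited FPKM from Cufflinks 2.2.1 with the log2 fold changes, p-values and q-values of a Cuffdiff comparison. The authors' log2 values run as CKO over WT, although their column name puts WT first: they match the ratio of group means within 0.01 for 99.9% of 13045 genes. The sources used here do not give the annotation, the scaling method or any use of strand.

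Columns were assigned by sample labels, and 1 WT column that matched more than 1 label entered without a number. FPKM were analysed as log2(FPKM + 1), a scale that understates changes of low genes. Genes of at least 1 FPKM in at least 5 of 12 libraries (13168) were fitted together with limma 3.58.1 in R 4.3.3 (genotype alone in the model, empirical Bayes with trend, two-sided, Benjamini-Hochberg, threshold 0.05). Ratios of neighbouring genes were compared by a two-sided exact permutation test, adjusted over the 10 pairs in which both genes were tested. Depth came from 1034 genes with 1 annotated transcript. Positions are from GENCODE M21 on mm10, promoter windows from RefSeq on GRCm38.p6. The highest correlation between 2 libraries was 0.981, and none was a duplicate. Both tests were checked on simulated data.

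The members, gene lists, pairs and tests were chosen with earlier results of these data known. All 39 genes could be named; values per library were given for called genes, genes whose groups do not overlap, the most abundant genes and neighbours of called genes. Of the 2 added lists, the called genes and the 2 most abundant were named, and the host genes beside their inserts. Alternatives covered the pseudocount, filter, scaling, library weights, a replicate block and each library left out. Leaving out CKO replicates 1 and 5, CKO replicates 2 and 3, or the unnumbered WT library with CKO replicate 1 was chosen after seeing the data.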

Additional observations from a re-analysis of the deposited data

Results flagged for a closer look

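Of 54 sets of values (27 genes in 2 groups) 6 had a library far from the others of its group by Dixon's test at the 95% level, where chance gives about 1 in 20. Nap1l5 was at 91.1 FPKM in CKO replicate 1, with the next CKO library at 15.9 FPKM. The unnumbered WT library was far above the other WT libraries for 3 genes, with Nnat at 132 FPKM (next library 78.7 FPKM), Peg10 at 46.6 FPKM (next 25.7 FPKM) and Peg3 at 4.53 FPKM (next 2.82 FPKM). Zrsr1 was at 20.3 FPKM in WT replicate 7 (next 16.2 FPKM), and Inpp5f at 14.6 FPKM in CKO replicate 3 (next 12.5 FPKM).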

How the results depend on the processing

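Nap1l5, Nnat, Igf2, Cdkn1c and Plagl1 kept direction and call in all 23 alternatives, with adjusted p of at most 0.0476. Gnas, Mest and Impact lost their call in 4, 10 and 16 of them; the cause was not tested. Of the 19 genes not called, 16 were called in none of them. The number called higher was 2 in place of 4 with scaling to total FPKM, with the replicate block and without CKO replicates 1 and 5, and ranged from 2 to 4 with 1 library left out; the number called lower ranged from 3 to 6 there. Scaling to total FPKM gave 2 higher and 4 lower among the imprinted genes and 845 higher and 1436 lower over all genes, against 1145 and 999, and gave a median log2 fold change over all genes of -0.095. With 1 library left out, the log2 ratio of Peg10 over Sgce differed by -0.859 to -0.606. The replicate numbers are shared by name only. Correlations of the deviations of same-numbered libraries were -0.01, 0.10, 0.04 and -0.06, and 1 of 4 CKO libraries correlated best with its own number. The replicate block on those 8 libraries left 2 genes higher and 3 lower, as did the same 8 libraries without the block; Gnas was among the calls lost with it (log2 fold change 0.43, adjusted p = 0.0807). Over all genes it called 756 higher and 622 lower, and the same 8 libraries without it 901 and 707. Without CKO replicates 1 and 5 these counts were 702 and 673. The 12 genes not tested are set by the limit of 1 FPKM. Without that limit 38 of the 39 genes were fitted, with 4 called higher and 4 lower. Impact lost its call there (adjusted p = 0.0592, limma), so a gene below the limit was among those called higher.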
